A study of Mus musculus with 6 samples.

Results

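The genes described here encode the enzymes that begin the removal of DNA methylation and the proteins that read it. The mouse lungs are from a design that targets the maintenance methyltransferase gene Dnmt1 in the epithelium. The 9 genes are Tet1, Tet2, Tet3, Tdg, Mbd1, Mbd2, Mbd3, Mbd4 and Zbtb33. They were chosen by name, with earlier results of these data known. Each was found by its Ensembl identifier, so that all 9 are among the 14162 genes measured in every library. RNA was sequenced from whole lungs at E12.5, in mid-gestation. There were 3 Dnmt1KO libraries, labelled ShhCre-Dnmt1KO, in which Cre recombinase driven by Shh is meant to delete Dnmt1, and 3 WT libraries, labelled as wild-type littermates. Shh is active in the endoderm that forms the airway epithelium, so mesenchyme, vessels and blood in a Dnmt1KO lung keep the gene. The labels give Cre for the Dnmt1KO group alone and mention no sorting. Nothing in them says that replicates are separate embryos, so a p-value here reflects library-to-library spread that may be technical.

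DNMT1 copies methyl groups at CpG sites onto newly made DNA strands. TET enzymes oxidise the methyl group, and the thymine DNA glycosylase TDG cuts out the most oxidised forms, which base excision repair then replaces with plain cytosine. Readers with a methyl-CpG-binding domain (MBD), and the zinc finger protein Kaiso encoded by Zbtb33, bring corepressor complexes to methylated DNA.

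The read totals recovered from the deposited values ran from 18192629 to 21046831 in the Dnmt1KO libraries against 20599736 to 25597662 in WT. Dnmt1 itself stood at log2 values of 15.57, 15.40 and 15.31 in Dnmt1KO replicates 1, 2 and 3, against 15.72, 15.74 and 15.76 in WT replicates 1, 2 and 3. Every Dnmt1KO value was below every WT value, but the gene did not pass limma's test over all genes (80.7% of the WT level, 95% interval 70.3% to 92.7%, adjusted p = 0.507). Whole-lung RNA includes cells outside the Cre lineage, and fewer cells of a type cannot be told apart from less RNA per cell. Summed markers of lung epithelium spanned 506 to 780 reads per 1000000 in Dnmt1KO and 574 to 705 in WT, those of mesenchyme 5138 to 6299 in Dnmt1KO and 4906 to 6021 in WT, those of endothelium 372 to 498 in Dnmt1KO and 282 to 474 in WT, and those of macrophages 85.3 to 109 in Dnmt1KO and 102 to 106 in WT. Erythroid markers spanned 2043 to 3579 in Dnmt1KO and 1507 to 2184 in WT, mesothelial ones 164 to 252 in Dnmt1KO and 161 to 237 in WT, and neural ones 16.9 to 50.5 in Dnmt1KO and 9.47 to 82.3 in WT. Cardiac muscle markers spanned 30.9 to 409 in Dnmt1KO, the top being replicate 2, and 41.2 to 70.9 in WT, and Dnmt1KO replicate 1 held 3 reads of 4 Y-linked genes where each of the other libraries held at least 4155. The part of these differences in the results below was not tested, beyond leaving out each library in turn.

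None of the 9 genes passed the test in either direction. Limma at an adjusted p under 0.05 called 0.29% of all genes, 40 higher (0.282%) and 1 lower (0.00706%) in Dnmt1KO, and at an unadjusted p under 0.05 it held 4.52% of all genes and 0 of the 9. Voom on the recovered reads also called 0 of the 9, with 0 at an unadjusted p under 0.05. The Dnmt1KO and WT values overlapped for all 9, where 8.78% of all genes had groups that did not overlap (3.99% with Dnmt1KO lower and 4.79% with Dnmt1KO higher). The log2 differences of the 9 ran from -0.21 for Mbd3 to 0.013 for Tet1, with a median of -0.026, beside a median of -5.9e-05 over all genes. Over the 6532 genes with a mean log2 value in the range of the 9, the median was -0.024, near that of the 9. Of these 6532 genes, 2.20% had an unadjusted limma p under 0.05 and 448 had groups that did not overlap. Limma called 0 of them higher and 1 lower. The median of the 9 was -0.10 without Dnmt1KO replicate 1 and lay between -0.084 and 0.016 without any other library. Taking the 95% intervals of the 9 together, they reached no lower than 73.7% and no higher than 123% of the WT level. Changes inside these bounds, or in epithelial cells alone, could be present and not be detectable in whole lung with 3 libraries a group.

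**Figure D1:**
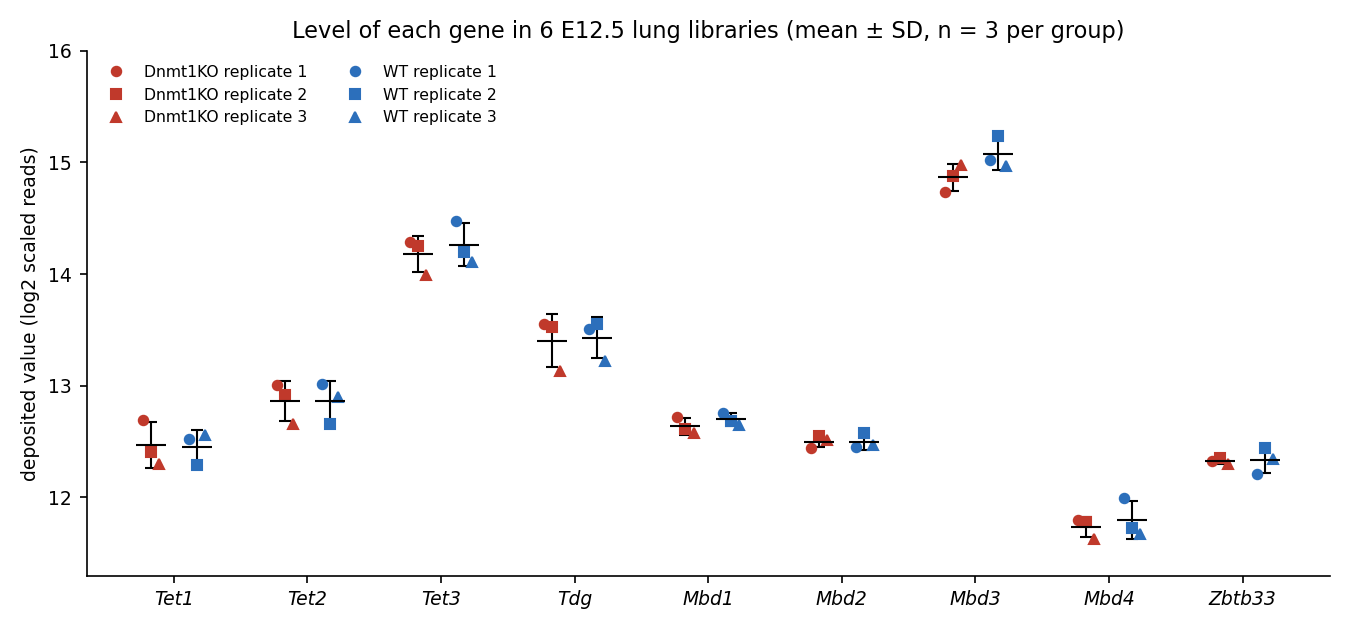
Deposited log2 value of each gene (y axis) in every library, with Dnmt1KO in red on the left of each pair and WT in blue on the right; marker shape gives the replicate and bars give mean ± SD, n = 3. The red and blue points of each of the 9 genes overlap. Heights of different genes are not scaled for length here.

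Tet3 was the most abundant TET gene in both genotypes. Per kilobase of exon, Tet3 averaged 10.9 ± 1.19 reads per kilobase per 1000000 reads (RPKM) in Dnmt1KO, against 11.5 ± 1.61 in WT (SD, with n = 3 per group). Tet2 averaged 4.35 ± 0.52 RPKM in Dnmt1KO and 4.31 ± 0.58 in WT, and Tet1 averaged 3.63 ± 0.53 RPKM in Dnmt1KO and 3.55 ± 0.39 in WT. Tet3 made up 57.9% ± 1.24 of the summed TET level in Dnmt1KO and 59.4% ± 3.28 in WT, Tet2 23.0% ± 0.19 in Dnmt1KO and 22.2% ± 1.52 in WT, and Tet1 19.2% ± 1.31 in Dnmt1KO and 18.39% ± 1.89 in WT. Exact two-sided permutation tests on these shares gave p = 0.5 for Tet3, 0.5 for Tet2 and 0.7 for Tet1, each adjusted p = 0.7 over 6 ratios, where 3 libraries against 3 allow no p below 0.1. Tet3 lay above the other TET genes in every library of both groups. The ranges of Tet2 and Tet1 over the 6 libraries overlapped, though Tet2 lay above Tet1 within each library.

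Tet1 (ENSMUSG00000047146, chromosome 10) encodes the TET enzyme with a CXXC domain that is best known from embryonic stem cells and germ cells. It had log2 values of 12.70, 12.41 and 12.30 in Dnmt1KO replicates 1, 2 and 3, against 12.52, 12.29 and 12.56 in WT replicates 1, 2 and 3. Dnmt1KO replicate 1 was the highest library and WT replicate 2 the lowest, so each group spanned most of the other. The log2 difference was 0.013 ± 0.12 (SE, limma adjusted p = 1), which is 101% of the WT level with a 95% interval of 82.8% to 123%.

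Tet2 (ENSMUSG00000040943, chromosome 3) encodes an enzyme without a CXXC domain, known from blood stem cells. Its log2 values were 13.00, 12.92 and 12.66 in Dnmt1KO replicates 1, 2 and 3, against 13.02, 12.66 and 12.90 in WT replicates 1, 2 and 3. Both groups held a library near the top and a library near the bottom of the range, and their means differed by 0.0014 ± 0.13 (SE, limma adjusted p = 1), with an interval of 82.0% to 122% of WT.

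Tet3 (ENSMUSG00000034832, chromosome 6), the enzyme that oxidises paternal DNA in the zygote, had log2 values of 14.28, 14.26 and 13.99 in Dnmt1KO replicates 1, 2 and 3, against 14.48, 14.20 and 14.11 in WT replicates 1, 2 and 3. WT replicate 1 was the highest and Dnmt1KO replicate 3 the lowest. The log2 difference of -0.084 ± 0.12 (SE, limma adjusted p = 1) was smaller than the within-group SD of 0.18, and its interval was 77.8% to 114% of WT.

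Tdg (ENSMUSG00000034674, chromosome 10) had log2 values of 13.55, 13.53 and 13.13 in Dnmt1KO replicates 1, 2 and 3, against 13.51, 13.56 and 13.22 in WT replicates 1, 2 and 3. Replicate 3 was low in both groups, and the log2 difference was -0.026 ± 0.14 (SE, limma adjusted p = 1), an interval of 78.9% to 122% of WT. The within-group SD of 0.21 was the largest of the 9 genes. The Tdg value is uncertain in 2 ways. A processed pseudogene, Tdg-ps, matches a Tdg transcript at 98.7% identity over 2968 bases, and it had 37, 57 and 63 reads in Dnmt1KO replicates 1, 2 and 3, against 70, 56 and 60 in those of WT, beside 1853 to 2332 reads of Tdg in Dnmt1KO libraries and 2164 to 2922 in WT. Other processed pseudogenes, Gm9855 (99.25% identity over 1194 bases) and Gm5597 (99.33% over 1193 bases), were not among the genes measured. Reads shared between Tdg and those copies cannot be sized here. Glt8d2, on the opposite strand, shares 367 exon bases with Tdg, and whether the counting used strand is not given in the sources used here. Glt8d2 had 72, 85 and 68 reads in Dnmt1KO replicates 1, 2 and 3, against 69, 49 and 55 in those of WT, so it is small beside Tdg.

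Among the readers within the 9 genes Mbd3 stood far above the rest. Mbd3 (ENSMUSG00000035478, chromosome 10) encodes a subunit of the nucleosome remodelling and deacetylase complex NuRD, and its mammalian protein binds methylated CpG poorly. It averaged 148 ± 12.1 RPKM in Dnmt1KO and 169 ± 15.2 in WT. Its log2 values were 14.74, 14.88 and 14.98 in Dnmt1KO replicates 1, 2 and 3, against 15.02, 15.24 and 14.97 in WT replicates 1, 2 and 3. The groups met at Dnmt1KO replicate 3 and WT replicate 3, and Dnmt1KO replicate 1 was lowest. Its log2 difference, -0.21 ± 0.10 (SE), was the largest in size of the 9 and did not pass (86.4% of WT, interval 73.7% to 101%, limma unadjusted p = 0.0691, adjusted p = 1). It was -0.13 without WT replicate 2 and -0.27 without Dnmt1KO replicate 3, where the unadjusted p was 0.0387 and the adjusted p 0.805.

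Mbd2 (ENSMUSG00000024513, chromosome 18) encodes the methyl-CpG-binding protein that takes the place of MBD3 in a separate form of NuRD. It was the steadiest of the 9, with log2 values of 12.44, 12.55 and 12.51 in Dnmt1KO replicates 1, 2 and 3, against 12.45, 12.58 and 12.47 in WT replicates 1, 2 and 3, a within-group SD of 0.063. All 6 libraries lay within 0.14 of each other, and the log2 difference was 0.0031 ± 0.082 (SE, limma adjusted p = 1; 88.0% to 114% of WT). The level per kilobase was 17.7 ± 0.62 RPKM in Dnmt1KO and 17.5 ± 0.69 in WT. The log2 value of Mbd3 minus that of Mbd2, a ratio chosen after the values were seen, was 2.30, 2.33 and 2.46 in Dnmt1KO replicates 1, 2 and 3, against 2.58, 2.66 and 2.50 in WT replicates 1, 2 and 3. These groups did not overlap, and the difference of -0.21 had an exact two-sided permutation p = 0.1, the smallest the design allows (adjusted p = 0.6 over 6 ratios). With Mbd2 hardly different, the ratio largely repeats the Mbd3 difference, and the adjustment does not cover every pair among the 9 genes.

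Mbd1 (ENSMUSG00000024561, chromosome 18), whose protein binds methylated DNA and partners the histone methyltransferase SETDB1, had log2 values of 12.72, 12.62 and 12.58 in Dnmt1KO replicates 1, 2 and 3, against 12.76, 12.69 and 12.65 in WT replicates 1, 2 and 3. Its log2 difference was -0.060 ± 0.082 (SE, limma adjusted p = 1; 84.3% to 109% of WT), and the groups overlapped through Dnmt1KO replicate 1. Mbd4 (ENSMUSG00000030322, chromosome 6) joins a methyl-CpG-binding domain to a glycosylase that repairs mismatches left by deamination at CpG. Its log2 values were 11.80, 11.78 and 11.63 in Dnmt1KO replicates 1, 2 and 3, against 12.00, 11.73 and 11.68 in WT replicates 1, 2 and 3. WT replicate 1 stood above the other 5 libraries, and the log2 difference was -0.064 ± 0.11 (SE, limma adjusted p = 1; 80.1% to 114% of WT). An annotated antisense RNA, not analysed here, shares 264 exon bases with Mbd4.

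Zbtb33 (ENSMUSG00000048047, X chromosome) encodes Kaiso, which binds neighbouring methylated CpGs and recruits the corepressor NCOR1. It had log2 values of 12.32, 12.36 and 12.30 in Dnmt1KO replicates 1, 2 and 3, against 12.21, 12.44 and 12.34 in WT replicates 1, 2 and 3. The Dnmt1KO libraries were tightly grouped within the wider WT range, with an SD of 0.029 in Dnmt1KO and 0.11 in WT. The log2 difference was -0.0070 ± 0.088 (SE, limma adjusted p = 1; 86.5% to 114% of WT). Dnmt1KO replicate 1, the library almost without Y-linked reads, lay inside the range of the other 5 for this X-linked gene. Tmem255a on the opposite strand shares 474 exon bases with Zbtb33. It had 332, 348 and 340 reads in Dnmt1KO replicates 1, 2 and 3, against 488, 212 and 410 in those of WT. Zbtb33 had 917 to 1040 reads in Dnmt1KO libraries and 1100 to 1187 in WT, so Tmem255a is not small beside it. Whether the counting used strand is not given in the sources used here, and reads shared between them cannot be sized.

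**Figure D2:**
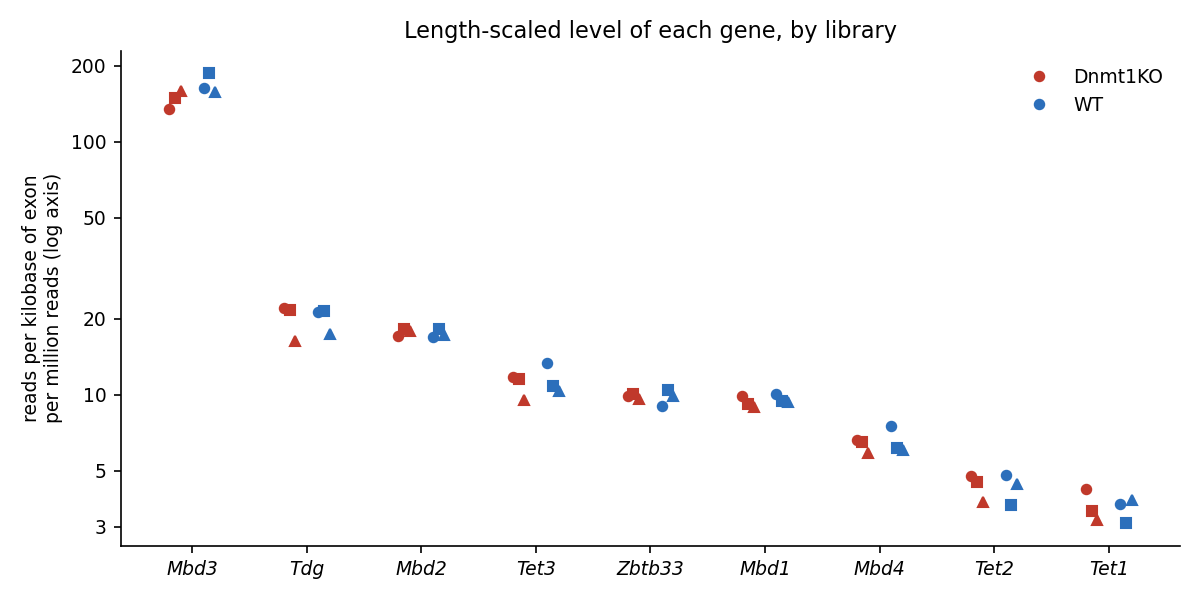
Reads per kilobase of exon per 1000000 reads (log axis) for each gene, ordered by its mean over 6 libraries, with Dnmt1KO points in red on the left and WT points in blue on the right. Mbd3 lies between 135 and 187 in all libraries, and no other gene exceeds 22.0.

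In order of level per kilobase of exon, over the 6 libraries, Mbd3 came first, followed by Tdg, Mbd2, Tet3, Zbtb33, Mbd1, Mbd4, Tet2 and Tet1. The ranges of Tdg (16.4 to 22.0 RPKM) and Mbd2 (16.98 to 18.3) overlapped, as did those of Tet3 (9.57 to 13.3) and Zbtb33 (9.05 to 10.4), of Zbtb33 and Mbd1 (8.95 to 10.1), and of Tet2 (3.67 to 4.81) and Tet1 (3.11 to 4.22). Within each library Tet2 lay above Tet1, while the order of the other overlapping neighbours changed between libraries. Mbd3, Mbd2, Mbd1 and Mbd4 each lay above the next gene in that order without overlap. The lengths are from a later genome build than the one named for the reads. With the longest transcript as the length, Mbd1 took rank 5 and Zbtb33 rank 6, Zbtb33 overlapped Mbd4, Mbd4 overlapped Tet2, and Tet2 did not overlap Tet1. Every transcript of a gene is pooled in these values.

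**Figure D3:**
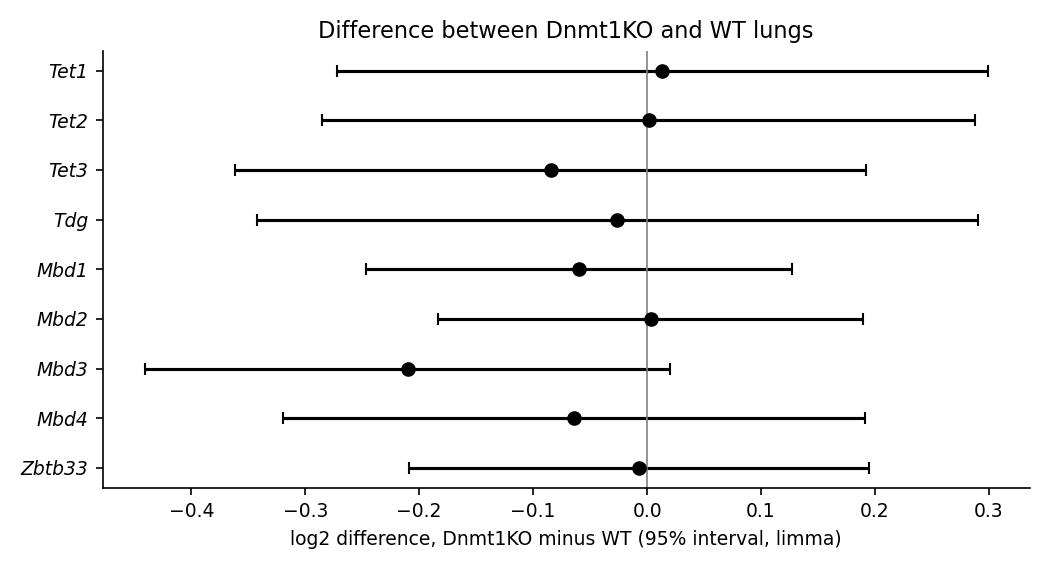
Log2 difference, Dnmt1KO minus WT (x axis), of each gene with its 95% interval from limma; the grey line marks no difference. Each interval includes 0, and that of Mbd3 reaches from -0.44 to 0.021.

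The promoters of 7 of the 9 genes were found in RefSeq's GRCm38.p6 table as 300-base windows around the annotated start. CpG, written CG on either strand and the site that DNMT1 methylates, occurred 57 times in the window of Tet2, 34 in that of Zbtb33, 26 in that of Tdg, 25 in that of Mbd4, 22 each in those of Tet3 and Mbd3, and 17 in that of Tet1. The median over all 32851 windows was 7. As many or more CpGs were found in 0.152% of all windows for Tet2, 7.73% for Zbtb33 and 31.4% for Tet1. No methylation was measured in these samples, so the count describes the sequence alone. The 100 bases before the start are given for the genes with the most CpGs, which are also those whose stretch touches no annotated exon, with each CpG in capitals. That of Tet2 is chr3:133544391-133544490 on the minus strand and holds 20, and that of Zbtb33 is chrX:38189693-38189792 on the plus strand and holds 16.
Tet2: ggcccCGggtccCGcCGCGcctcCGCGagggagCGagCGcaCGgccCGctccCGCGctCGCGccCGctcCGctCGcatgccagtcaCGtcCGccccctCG
Zbtb33: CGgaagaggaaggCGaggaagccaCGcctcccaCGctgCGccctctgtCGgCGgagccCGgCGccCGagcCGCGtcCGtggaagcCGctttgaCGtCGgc

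Some of the spread among libraries was shared between genes. The median deviation of Tet1, Tet2 and Tet3 from their own means was 0.14, 0.037 and -0.20 in Dnmt1KO replicates 1, 2 and 3 and 0.16, -0.17 and 0.042 in WT replicates 1, 2 and 3, lowest in Dnmt1KO replicate 3 and WT replicate 2. Tet3 alone was lower in WT replicate 3 than in WT replicate 2. These are long genes, with 15457 to 16870 exon bases. The median of the other 1394 genes in the longest 10% was 0.067, 0.036 and -0.11 in Dnmt1KO replicates 1, 2 and 3, against 0.096, -0.070 and -0.017 in WT replicates 1, 2 and 3, low in the same libraries. The 1399 genes in the shortest 10% had medians of -0.13, -0.0063 and 0.16 in Dnmt1KO replicates 1, 2 and 3, against -0.14, 0.12 and 0.0019 in WT replicates 1, 2 and 3. Mbd3, with 1987 exon bases, is longer than the limit of 1754 for the shortest 10%. It deviated by -0.23, -0.090 and 0.0066 in Dnmt1KO replicates 1, 2 and 3, against 0.053, 0.27 and -0.0046 in WT replicates 1, 2 and 3. Mbd3 was thus lowest in Dnmt1KO replicate 1 and highest in WT replicate 2. The short genes were instead lowest in WT replicate 1 and highest in Dnmt1KO replicate 3.

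**Figure D4:**
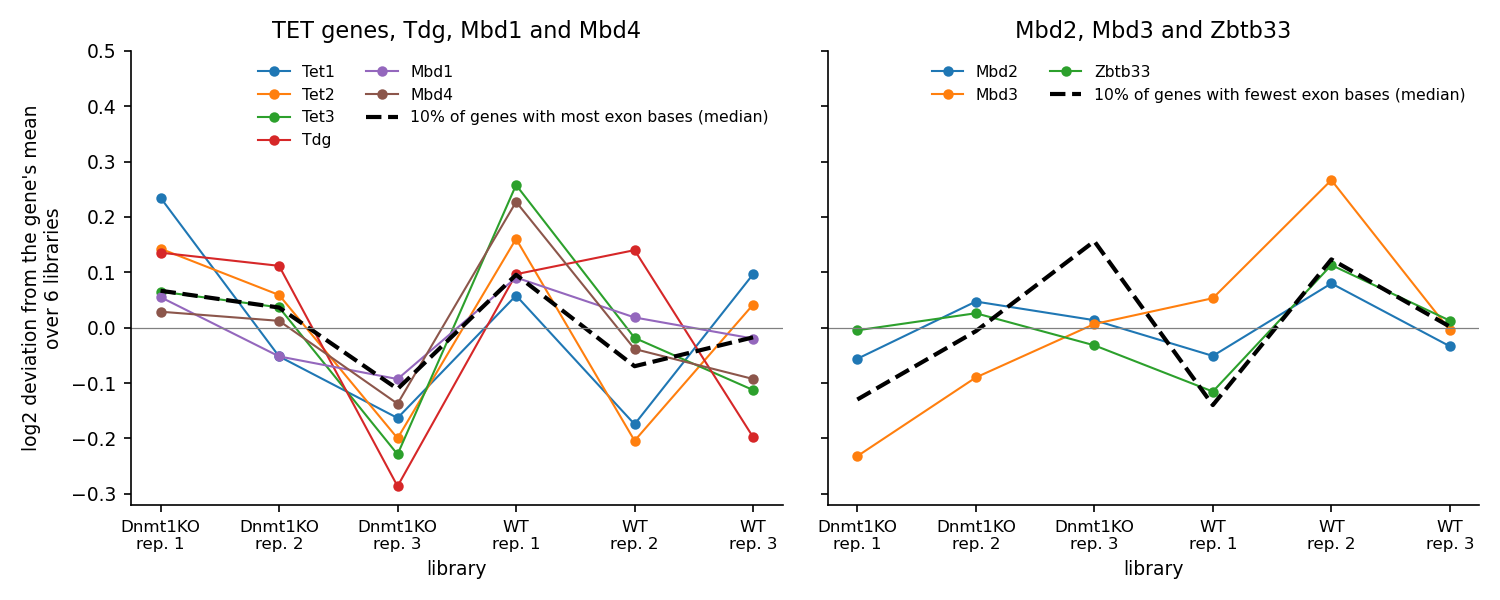
Log2 deviation of each gene from its own mean over 6 libraries (y axis), by library (x axis), Dnmt1KO first. Dashed lines are medians of the 10% of genes with most (left) or fewest (right) exon bases. Of the genes drawn, the TET genes alone are long or short enough for either class. The TET genes and the long genes are both below 0 in Dnmt1KO replicate 3 and WT replicate 2.

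When each library's trend on exon length was removed, a step added after the data were seen, the within-group SD of Tet2 was 0.087, against 0.18 as deposited, that of Tet3 0.093 against 0.18, and that of Tet1 0.12 against 0.18. That of Mbd3 was 0.084 against 0.13, and that of Mbd1 0.042 against 0.067. The SD of Tdg was 0.20 against 0.21 and that of Zbtb33 0.091 against 0.084, so the SDs of Tdg and Zbtb33 moved little. The differences between genotypes hardly moved (Tet1 0.015, Tet2 0.0026, Tet3 -0.083, Mbd3 -0.21), and none passed. Mbd3 then had an unadjusted limma p of 0.0242 and an adjusted p of 0.780.

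As a description over the 6 libraries, 22 of the 36 pairs among the 9 genes had a positive Pearson's r. The libraries also differ in the length trend above and in read total, and the part of either in these correlations was not tested. The highest was 0.98, between Tet3 and Mbd4, followed by 0.86 between Tet1 and Tet2, and the lowest was -0.85, between Tet1 and Mbd2. Across the 13966 other named genes, those with values most like Tet1 were Zfp46, Nup214 and Inpp5d (r = 0.995, 0.994 and 0.992). Genes most like Tet2 included Secisbp2l and Ino80 (0.998 and 0.994), and those most like Tet3 were Crtc1, Tmem201 and Ulk1 (0.998, 0.997 and 0.996). An r above 0.95 was reached by 35 genes for Tet1, 95 for Tet2 and 154 for Tet3, so these top genes are a few among many.

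The genes that work with TET enzymes and readers were set beside them, in 5 lists. Limma called 0 genes in each list over all genes tested, as did voom on the recovered reads. At an unadjusted p under 0.05 both tests held 0 of 12 other MBD or methyl-CpG-binding genes, 0 of 12 NuRD genes, 1 of 24 measured genes of base excision and deamination, 0 of 18 TET cofactors and regulators, and 1 of 11 corepressor partners of Kaiso and MBD1. Over all genes, limma held 4.52% at that threshold. The list medians of the log2 difference were 0.0017, -0.039, -0.0047, 0.0048 and -0.033 in the order of the lists. In the same order, groups did not overlap for 1, 0, 2, 0 and 1 genes, beside 8.78% of all genes. They were Uhrf1 and Xrcc1, lower in Dnmt1KO, and Apobec3 and Atf7ip2, higher in Dnmt1KO.

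**Figure D5:**
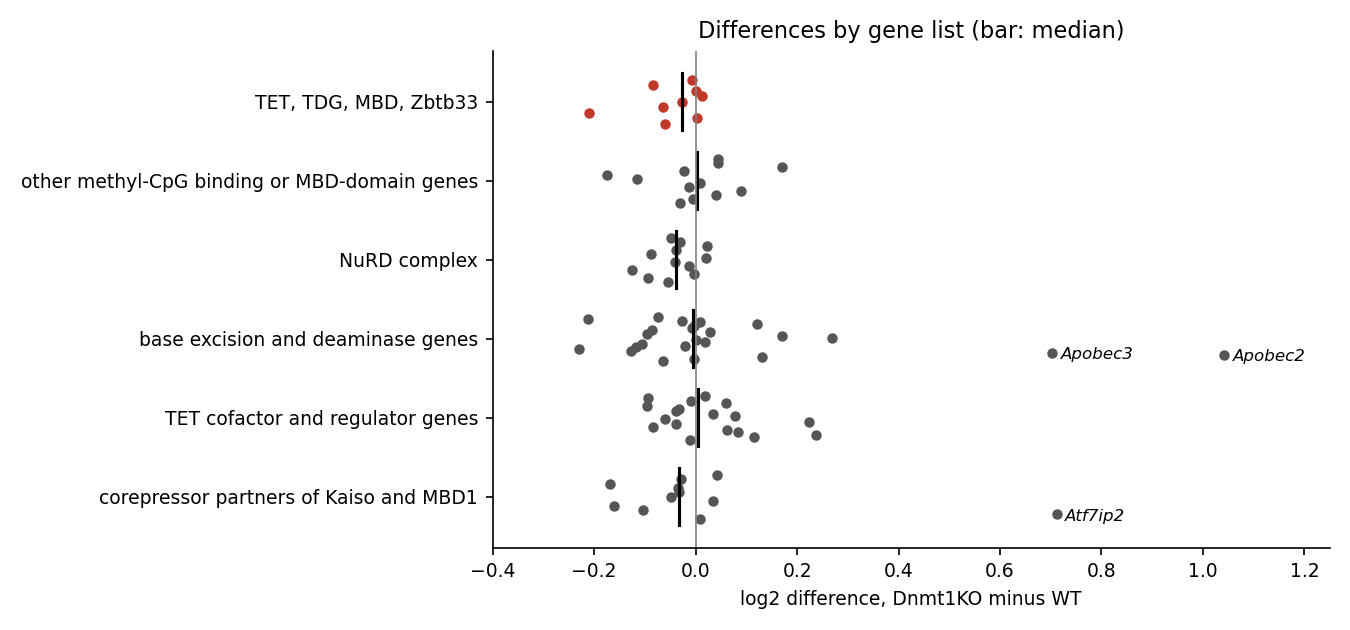
Log2 difference, Dnmt1KO minus WT (x axis), of every measured gene in each list; red points are the 9 genes described here, grey points their partners, and black bars list medians. Most points lie near 0, and Apobec3, Apobec2 and Atf7ip2 lie above 0.5 without passing limma's test.

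Among the readers outside the 9, Uhrf1, which brings DNMT1 to newly replicated DNA, had log2 values of 15.23, 15.04 and 15.17 in Dnmt1KO replicates 1, 2 and 3, against 15.26, 15.30 and 15.39 in WT replicates 1, 2 and 3. All Dnmt1KO values were below all WT values, and the log2 difference of -0.18 ± 0.082 (SE) did not pass (limma adjusted p = 1). Zbtb38, a zinc finger reader related to Kaiso, differed by 0.17 ± 0.12 and Setdb2, which carries an MBD, by -0.12 ± 0.13, and their groups overlapped. In NuRD the smallest p-values were those of the subunit gene Gatad2a (-0.12 ± 0.087), the remodeller gene Chd3 (-0.093 ± 0.11) and Mta1 (-0.088 ± 0.11), all with overlapping groups.

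Apobec3, a cytidine deaminase that restricts retroviruses, had 208, 147 and 235 reads in Dnmt1KO replicates 1, 2 and 3, against 146, 119 and 147 in WT replicates 1, 2 and 3. On the log2 scale all Dnmt1KO values were above all WT values, with a difference of 0.70 ± 0.20 (SE), but it did not pass over all genes (limma unadjusted p = 0.00744, adjusted p = 0.513). Apobec2 differed by 1.04 ± 0.54 (adjusted p = 1), with 113 reads in Dnmt1KO replicate 2 and 20 to 47 in the other 5 libraries. Apobec2 is best known from heart and skeletal muscle, and Dnmt1KO replicate 2 is the library with the most cardiac muscle reads, a link that was not tested. Ung, the uracil DNA glycosylase gene, differed by -0.21 ± 0.10 (adjusted p = 1).

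Among TET cofactors and regulators the smallest p-values belonged to the ubiquitin ligase scaffold gene Cul4b (0.11 ± 0.075), Cxxc4, whose CXXC protein binds TET2 (0.24 ± 0.20), and Dcaf1, which serves with CUL4 (-0.085 ± 0.078), each with limma adjusted p = 1. Of the corepressor partners, Atf7ip2, a relative of the MBD1 partner gene Atf7ip, had 113, 123 and 150 reads in Dnmt1KO replicates 1, 2 and 3, against 96, 89 and 85 in WT replicates 1, 2 and 3. Its groups did not overlap, and the log2 difference of 0.71 ± 0.18 (SE) did not pass (limma unadjusted p = 0.00336, adjusted p = 0.313). Chaf1a (-0.10 ± 0.078) had overlapping groups.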

How the data were processed

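Mouse lung RNA at E12.5 was measured in 3 Dnmt1KO and 3 WT libraries, grouped by their titles. The authors deposited 1 table per library of log2 values by Ensembl identifier; the submitters' processing notes name STAR, limma and mm9, while counter, annotation, gene filter and scaling were not given in the sources used here. Raising 2 to each value gave whole reads plus 0.5, times a constant of the library, for 100% of 14162 genes within 1e-06 reads. The lowest gene total was 60 reads, so genes below that were not analysed here.

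Symbols, chromosomes and exon lengths came from GENCODE M21 (GRCm38), matching 13967 identifiers; no mm9 annotation was used here. The deposited values of all genes were fitted with limma 3.58.1 (R 4.3.3) with genotype as the only term and trend and robust moderation, with Benjamini-Hochberg adjustment over all genes and a threshold of 0.05. RPKM were computed from recovered reads over their library total and exon length. The fit was also run on simulated reads, with noise drawn independently for each gene. That simulation lacks the length trend, and no result here rests on it. Near copies were transcripts of other genes with 90% identity over 300 bases. The 9 genes and the lists were chosen with earlier results of these data known. Named genes were the 9, Dnmt1, the 3 of smallest p in each of 5 partner lists and the 3 most like each TET gene. A few of these are left out of the text. Overlapping or copied genes, and Xrcc1, were named after their values were seen. Alternatives were other scalings, a filter, moderation, sample weights, a replicate block, voom, another offset and leaving out each library; removing a length trend was added after the data were seen. Python 3.11.15 and scipy 1.17.1 gave the exact permutation tests.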

Additional observations from a re-analysis of the deposited data

How the results depend on the processing

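Under all 15 alternatives no member of the 9 was called, so 0 remained the count in each direction. Over all genes limma called 40 higher and 1 lower. With the 25% of genes of lowest mean left out it called 0 and 0 of 10621, with 129 and 179 at an unadjusted p under 0.05. None was called lower without trend and robust estimation (198 at an unadjusted p under 0.05), 12 were with sample weights and 2 with the length trend removed. As each library was left out, the count ran from 15 to 42 for higher and from 0 to 17 for lower; leaving out Dnmt1KO replicate 1 gave 15 higher and leaving out Dnmt1KO replicate 2 or WT replicate 3 gave 25, with 17 lower without Dnmt1KO replicate 3, 3 without WT replicate 1 and 0 without any other (173 to 206 lower at an unadjusted p under 0.05). The replicate block gave 26 higher and 0 lower (306 lower at an unadjusted p under 0.05). Same-numbered libraries had correlations of deviations of -0.0027, -0.18 and 0.31, and differently numbered ones ran from -0.37 to 0.38. The labels state no pairing by number, and so few libraries cannot settle whether one exists.

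Of 135 refitted differences of the 9 genes, 25 turned sign, all of genes whose difference lay between -0.084 and 0.013. With sample weights Tet1 was -0.016, Tet3 0.019, Tdg 0.11 and Mbd4 0.012. Zbtb33 was 0.012 with quantile normalization, 0.010 with voom, 0.0079 with an offset of 1 on read counts scaled to library totals and 0.0028 with the length trend removed. As each library was left out, Tet1 ran from -0.10 to 0.098, Tet2 from -0.10 to 0.10, Tet3 from -0.16 to 0.023, Tdg from -0.13 to 0.11, Mbd2 from -0.022 to 0.044, Mbd4 from -0.13 to 0.034 and Zbtb33 from -0.066 to 0.048. Mbd1 and Mbd3 stayed negative under every alternative. The median of the 9 was -0.10 without Dnmt1KO replicate 1. The cause of these moves was not tested.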
